A study of Mus musculus with 3 samples.

Results

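The aminoacyl-tRNA synthetases were taken from a mouse RNA-seq series as the protein-coding genes of the count table whose symbol is a letter followed by "ars" with or without a 1 or 2, together with Farsa, Farsb and Eprs. The rule found 37 genes of the 56748 listed, and all 37 were among the 13712 genes that reached a CPM (counts scaled to a common library size) of 1 in at least 1 library. The deposited table uses older symbols for most of them, for example Aars, Gars and Nars, and the newer symbol Mars1. Symbols that end in 2 mark the mitochondrial enzymes, of which there are 17, and the other 20 genes were taken as cytosolic.

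The study treated fibroblasts with a cytokine and sequenced their polyadenylated RNA. All 3 libraries came from visceral adipose fibroblasts of wild-type animals fed a high-fat diet, prepared from the stromal vascular fraction by magnetic removal of cells with CD45, CD31 or Ter119. One library was from cells kept with vehicle, for which the labels give no time. Another was from cells kept for 24 h with recombinant mouse oncostatin M (Osm), a cytokine of the interleukin-6 family, at 3 ng/mL. The third was from cells kept for 24 h with recombinant human TGF-beta1, a cytokine that drives matrix production in fibroblasts, at 3 ng/mL. The labels say neither how many mice gave the cells nor whether they were pooled. With 1 library per condition there is no replicate check, no SD and no p-value for any value below.

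Aminoacyl-tRNA synthetases join each amino acid to its tRNA and so supply the ribosome with charged tRNA. They fall into class I and class II by the fold of their catalytic domain. Nuclear genes encode separate enzymes for the cytosol and for the mitochondrion, except that the glycyl enzyme (Gars) and the lysyl enzyme (Kars) serve both compartments from a single gene. Several cytosolic enzymes sit in a multi-synthetase complex held together by the scaffold proteins Aimp1, Aimp2 and Eef1e1. Many cytosolic synthetase genes are known targets of the transcription factor Atf4 in the response to amino acid shortage.

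The libraries held 18336068 (vehicle), 17319872 (Osm) and 18533741 (TGF-beta1) counts. The 10 fibroblast markers summed to 26839 CPM with vehicle, 26759 with Osm and 30757 with TGF-beta1. Of these 10, 2 were at least 1.2-fold higher with TGF-beta1, Col1a1 (4285 CPM with vehicle and 8039 with TGF-beta1) and Col1a2. Another 4 were lower, among them Dcn (1984 and 824 CPM) and Pdgfra (1129 and 697 CPM). By the same rule, given below, 18% of all genes tested were higher and 17.7% lower. All 6 erythroid markers were at 0, as were Itgam and Cd3e among the 10 leukocyte markers and Tie1 and Cldn5 among the 7 endothelial markers in every library. The leukocyte markers summed to 24.3, 21.1 and 17.6 CPM with vehicle, Osm and TGF-beta1, the endothelial markers to 56.2, 45.2 and 37.4, the 6 adipocyte markers to 0.380, 0.288 and 0.0543, and the 6 mesothelial markers to 41.2, 40.4 and 49.8. Other members of these lists were detected. Cd68 had 8.91, 6.68 and 3.69 CPM, Cd14 5.71, 5.24 and 2.88, and Csf1r 8.48, 8.41 and 10.2. Tek made 48.5, 38.9 and 34.4 CPM of the endothelial sums, and Wt1 37.1, 36.1 and 43.4 of the mesothelial sums. The 6 mural markers summed to 28.6, 30.1 and 88.5 CPM, of which Cspg4 made 8.53, 7.38 and 74.9. The mural markers Notch3 (14.6, 15.5 and 10.4 CPM) and Abcc9 (4.29, 6.05 and 1.74) were lowest with TGF-beta1. The part of these markers in the synthetase values was not tested. In bulk RNA, fewer cells of a type and less RNA per cell cannot be told apart.

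Between genes, levels were compared as deposited FPKM, which divides by gene length. In the vehicle library the cytosolic enzymes ran from 7.02 to 93.1 FPKM with a median of 23.2, and the mitochondrial enzymes from 0.710 to 13.8 FPKM with a median of 2.08. The glycyl enzyme Gars had 93.1 FPKM with vehicle, 87.5 with Osm and 148 with TGF-beta1. The asparaginyl enzyme Nars had 92.6, 91.8 and 136 FPKM. Gars was the highest of the 37 with vehicle and TGF-beta1, and Nars with Osm. Both peaked in the TGF-beta1 library, and with vehicle and Osm their levels lay within a few FPKM of each other. Sars, the seryl enzyme, came next with 50.2, 50.1 and 65.8 FPKM. At the low end of the cytosolic group stood Farsa, the alpha subunit of the phenylalanyl enzyme, with 7.02, 8.65 and 9.69 FPKM. Its partner subunit Farsb stood higher at 21.3, 22.7 and 33.7 FPKM, although the enzyme is built from both.

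**Figure D1:**
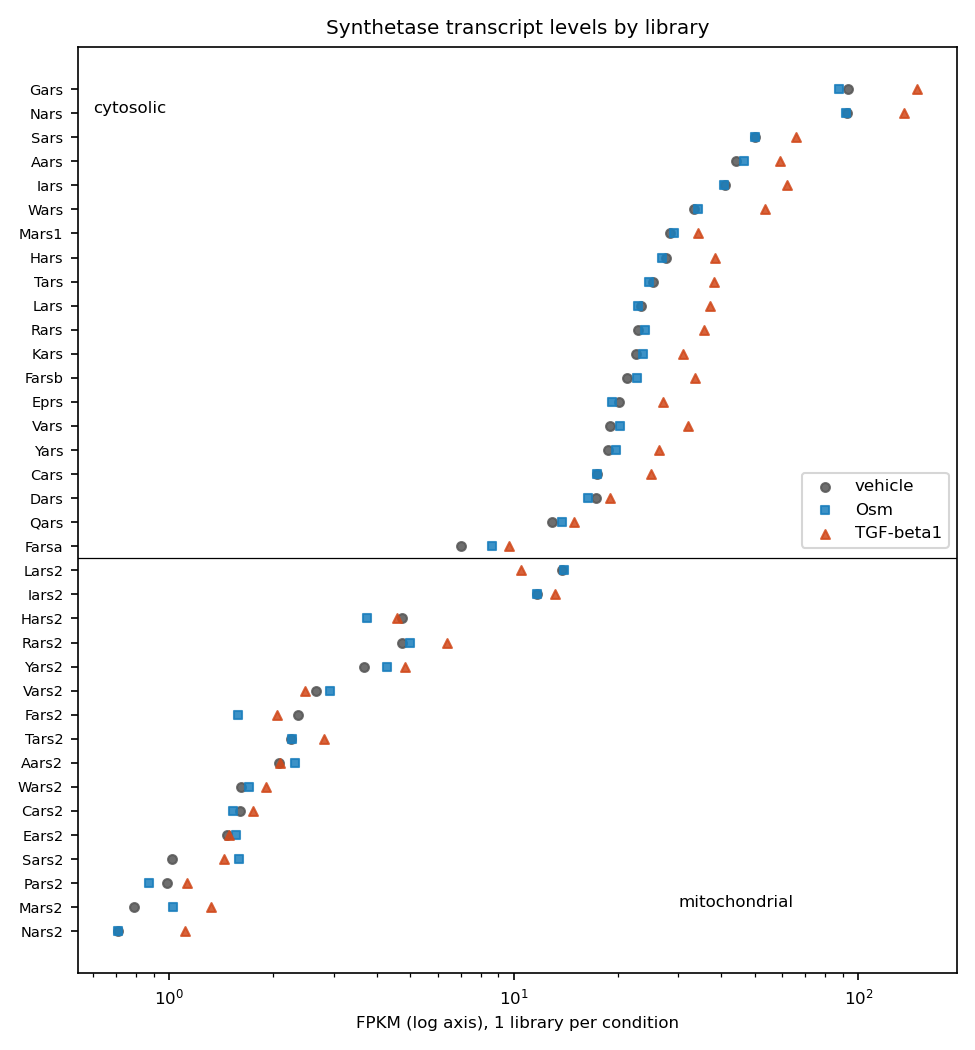
Level of 36 of the 37 synthetases in the 3 libraries, as deposited FPKM on a log axis, with 1 point per gene and library. Cytosolic enzymes lie between 7.02 and 148 FPKM and mitochondrial enzymes between 0.709 and 14.0 FPKM, so the groups overlap only in a narrow range that holds Lars2 and Iars2.

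Of the mitochondrial enzymes, the leucyl enzyme Lars2 (13.8, 14.0 and 10.5 FPKM with vehicle, Osm and TGF-beta1) and the isoleucyl enzyme Iars2 (11.7, 11.7 and 13.1 FPKM) had the highest levels. Lars2 was lowest with TGF-beta1 and Iars2 highest there, so their order at the top of the mitochondrial group was exchanged. The asparaginyl enzyme Nars2 was the lowest of the 37 genes in all 3 libraries, at 0.710 FPKM with vehicle, 0.709 with Osm and 1.11 with TGF-beta1. For each of 17 amino acids that have both enzymes in the set, the cytosolic gene exceeded its mitochondrial partner in all 3 libraries. The ratio of the FPKM values ran from 1.70 to 130 with vehicle, with a median of 10.8, and from 3.53 to 123 with TGF-beta1, with a median of 13.6.

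TGF-beta1 was compared with vehicle on TMM-scaled CPM. A gene was counted as higher or lower where its CPM differed at least 1.2-fold and an exact 95% interval for that count ratio excluded 1. This interval covers counting error only, and the reads carry no molecular identifiers. By that rule 18 of the 20 cytosolic enzymes were higher with TGF-beta1 and 0 were lower, beside 18% of all genes tested that were higher and 17.7% that were lower. At 1.5-fold or more, 8 of the 20 were higher, beside 6.01% of all genes. None of the 37 synthetases was 2-fold higher or lower, beside 2.27% and 4.79% of all genes. The median log2 ratio of the cytosolic enzymes was 0.50, with a range of 0.13 to 0.76, against 0.01 for all genes tested. Their summed CPM was 3250 with vehicle and 4634 with TGF-beta1, a ratio of 1.43 (95% interval 1.41 to 1.44).

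**Figure D2:**
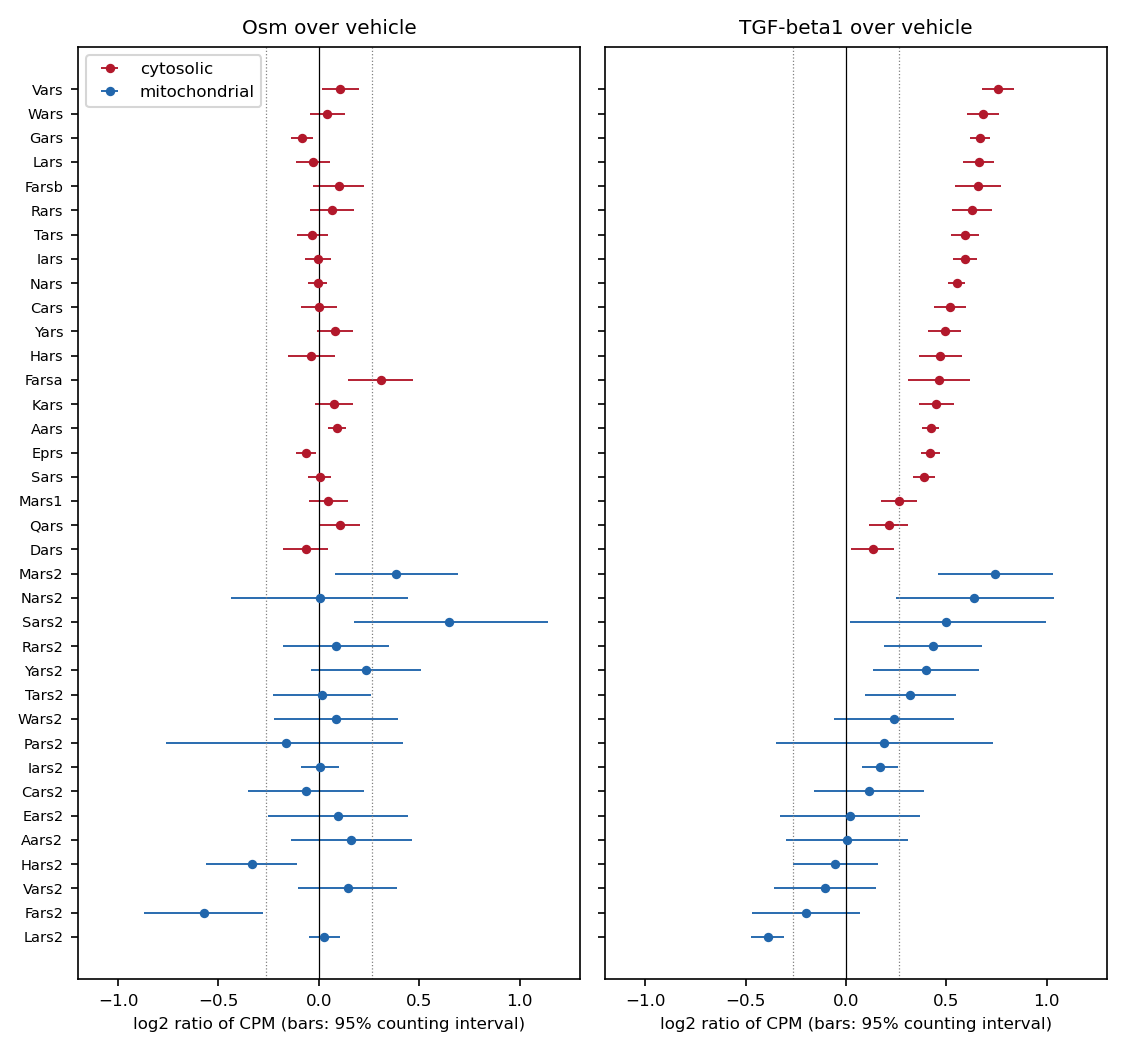
Ratio of the CPM with Osm and with TGF-beta1 to the CPM with vehicle, on a log2 axis, for 36 of the 37 synthetases, with bars for the 95% interval of each count ratio (counting error only). With TGF-beta1 all 20 cytosolic intervals lie above 1, while 8 of the 16 mitochondrial intervals drawn hold 1 and that of Lars2 lies below it.

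Vars, the valyl enzyme, (chr17:35219963-35235298 on the plus strand, build mm39) had the largest ratio of the cytosolic group. It stood at 106.2 CPM with vehicle, 114.4 with Osm and 179.5 with TGF-beta1. TGF-beta1 was thus 1.69-fold above vehicle (95% interval 1.60 to 1.79), and 95.8% of the genes tested had a smaller ratio. The tryptophanyl enzyme Wars, which interferon is also known to induce, had 114.6, 118.1 and 184.0 CPM and a TGF-beta1 ratio of 1.61 (1.52 to 1.70). Gars had 290.3, 274.0 and 460.6 CPM and a ratio of 1.59 (1.53 to 1.64). Lars, the leucyl enzyme that is also known as a leucine sensor upstream of mTORC1, had 125.8, 123.3 and 198.8 CPM and a ratio of 1.58 (1.5 to 1.67). In each of these 4 genes the TGF-beta1 library stood alone and the other libraries lay close together.

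Farsb had 55.8, 59.7 and 88.0 CPM with vehicle, Osm and TGF-beta1, a ratio of 1.58 (1.46 to 1.71) for TGF-beta1 over vehicle. The arginyl enzyme Rars had 74.1, 77.6 and 114.5 CPM and a ratio of 1.54 (1.44 to 1.66). The threonyl enzyme Tars had 149.1, 145.8 and 225.0 CPM and a ratio of 1.51 (1.44 to 1.58). Iars, the isoleucyl enzyme, closed the group of 8 genes past 1.5-fold, with 216.6, 216.1 and 326.4 CPM and a ratio of 1.51 (1.45 to 1.57). Neighbours in this order, from Wars to Iars, had overlapping intervals. The next genes in order were Nars (403.2, 401.4 and 590.5 CPM), the cysteinyl enzyme Cars (114.8, 114.8 and 164.4 CPM) and the tyrosyl enzyme Yars (111.6, 118.1 and 156.8 CPM), with ratios of 1.46, 1.43 and 1.41. All 3 were highest with TGF-beta1.

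The remaining cytosolic enzymes had smaller ratios. TGF-beta1 over vehicle was 1.39 for the histidyl enzyme Hars (67.7, 65.9 and 93.7 CPM with vehicle, Osm and TGF-beta1), 1.38 for Farsa (31.8, 39.4 and 43.9 CPM) and 1.37 for Kars (100.6, 106.1 and 137.5 CPM). It was 1.34 for both the alanyl enzyme Aars (408.5, 434.8 and 546.8 CPM) and Eprs (364.9, 348.9 and 488.3 CPM), which joins the glutamyl and prolyl enzymes in a single protein. Sars (258.1, 258.7 and 337.9 CPM) had a ratio of 1.31. The methionyl enzyme Mars1 stood just inside the 1.2-fold limit, with 97.1, 100.3 and 116.6 CPM and a ratio of 1.201 (1.13 to 1.28). Both cytosolic genes that missed it had intervals above 1. They were the glutaminyl enzyme Qars, with 84.5, 90.7 and 97.8 CPM and a ratio of 1.16 (1.08 to 1.24), and the aspartyl enzyme Dars, with 75.2, 71.9 and 82.4 CPM and a ratio of 1.10 (1.02 to 1.18).

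Qars, Dars and Mars1 all belong to the multi-synthetase complex. Of the 8 genes for enzymes of the complex (Dars, Eprs, Iars, Kars, Lars, Mars1, Qars and Rars), 6 were higher with TGF-beta1, beside 18% of all genes tested. Their median log2 ratio was 0.44. The other 12 cytosolic genes were all higher, with a median of 0.53, and the ranges of both groups overlapped. Among the scaffold proteins, Aimp1 had 40.8, 38.8 and 44.0 CPM with vehicle, Osm and TGF-beta1 and was not counted as changed, whereas Aimp2 had 24.5, 23.1 and 33.3 CPM, a log2 ratio of 0.44 with TGF-beta1. Eef1e1 (also called Aimp3) stood apart at 13.0, 17.2 and 31.7 CPM, with log2 ratios of 1.28 for TGF-beta1 and 0.40 for Osm over vehicle, both of them past the limit. By class of catalytic fold, 8 of 9 class I genes and 9 of 10 class II genes of the cytosol were higher with TGF-beta1, beside the same 18%. Their median log2 ratios were 0.59 and 0.47. Eprs holds an enzyme of each class and was left out of both.

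Most mitochondrial enzymes had a ratio above 1 with TGF-beta1, 13 of 17, beside 51.3% of all genes tested, and fewer were past the limit. Of the 17, 6 were higher, 1 was lower and the other 10 were not past it, beside the 18% and 17.7% of all genes. Their median log2 ratio was 0.17 and the range was −0.39 to 0.74. Their summed CPM was 413 with both vehicle and TGF-beta1, a ratio of 0.999 (0.967 to 1.03). Lars2 alone made 152.4 of the 413 CPM with vehicle, and without it the sum was 260.8 CPM with vehicle and 296.3 with TGF-beta1, a ratio of 1.14 (1.09 to 1.18). All cytosolic enzymes were above 30 CPM with vehicle, whereas Lars2 and Iars2 were the only mitochondrial ones above it. Of all genes below 30 CPM, 18.4% were higher with TGF-beta1 and 18.4% lower, and of those at or above it, 17.4% and 16.8%. These similar shares do not show that a given ratio is called as readily at low counts.

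The methionyl enzyme Mars2 (chr1:55276336-55287629 on the plus strand, build mm39) had the largest TGF-beta1 ratio of the mitochondrial group. It stood at 8.91 CPM with vehicle, 11.6 with Osm and 14.9 with TGF-beta1, a ratio of 1.67 (1.37 to 2.04) for TGF-beta1. Nars2 followed with 4.95, 4.96 and 7.70 CPM and a ratio of 1.55 (1.19 to 2.05). Sars2, the seryl enzyme, had 3.37, 5.30 and 4.77 CPM and a ratio of 1.41 (1.01 to 1.99). For Mars2 and Sars2 the Osm library also lay above vehicle, while for Nars2 the TGF-beta1 library stood alone. The other 3 higher genes were the arginyl enzyme Rars2 (13.1, 13.9 and 17.7 CPM, ratio 1.35), the tyrosyl enzyme Yars2 (11.5, 13.5 and 15.2 CPM, ratio 1.32) and the threonyl enzyme Tars2 (15.6, 15.8 and 19.5 CPM, ratio 1.25).

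Lars2 (chr9:123195992-123291731 on the plus strand, build mm39) was the only synthetase that was lower with TGF-beta1. It had 152.4 CPM with vehicle, 155.4 with Osm and 116.4 with TGF-beta1, which is 1.31-fold lower than vehicle (95% interval 1.24 to 1.39). Vehicle and Osm lay close together and TGF-beta1 well below them. In the same library the ribosomal RNA row Rn18s-rs5 had 1831 CPM against 2312 with vehicle, the mitochondrial ribosomal RNA mt-Rnr2 had 233.0 against 310.6 and mt-Rnr1 had 141.9 against 208.7. The part of ribosomal RNA reads in the Lars2 value was not tested. In transcripts of the earlier mouse build, 0.196% of the Lars2 windows of 50 bases also occurred in a transcript of another gene. That search took exact matches to annotated transcripts only, so it cannot show what part ribosomal RNA reads had.

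The remaining 10 mitochondrial enzymes were not past the limit with TGF-beta1. The isoleucyl enzyme Iars2 had 103.5, 104.0 and 116.4 CPM and a ratio of 1.12 whose interval, 1.06 to 1.196, excluded 1. The intervals of the other 9 held 1. Among them were Wars2 (9.56 CPM with vehicle, 11.3 with TGF-beta1), the prolyl enzyme Pars2 (3.04, 3.47), Cars2 (11.6, 12.6), the glutamyl enzyme Ears2 (7.55, 7.65), Aars2 (9.89, 9.93), Hars2 (20.3, 19.5), Vars2 (14.5, 13.5) and the phenylalanyl enzyme Fars2 (13.5, 11.8). The intervals of Hars2 (0.831 to 1.12), Vars2 (0.780 to 1.11) and Fars2 (0.722 to 1.05) ended below 1.2. On the lower side they reached 1.203-fold, 1.28-fold and 1.39-fold lower, also past the limit. Those of the other genes named among the 9 reached past 1.2 on the upper side. For all of these genes a modest difference could thus have been missed. The interval of Pars2, the least abundant by CPM with vehicle, ran from 0.785 to 1.66. Mitochondrial class I and class II genes gave medians of 0.17 and 0.14. In class I 3 of 9 genes were higher and 1, Lars2, was lower, and in class II 3 of 8 were higher. Of all genes tested, 18% were higher and 17.7% lower.

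The cytosolic and mitochondrial enzymes of the same amino acid were then set side by side for the 17 amino acids. The cytosolic gene had the larger TGF-beta1 ratio in 14 of 17, and the interval of the difference in log2 ratio lay above 0 in 10, below 0 in 1 and held 0 in 6. The median difference was 0.40. Leucine had the widest gap, 1.05 on the log2 scale (0.94 to 1.16), with Lars higher and Lars2 lower. Valine followed with a difference of 0.86 between Vars and Vars2, then phenylalanine with 0.66 between Farsa and Fars2, and histidine with 0.52. Methionine was the single amino acid with the opposite order beyond counting error, at −0.48 (−0.77 to −0.18), since Mars2 had the largest ratio of its group and Mars1 one of the smallest.

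**Figure D3:**
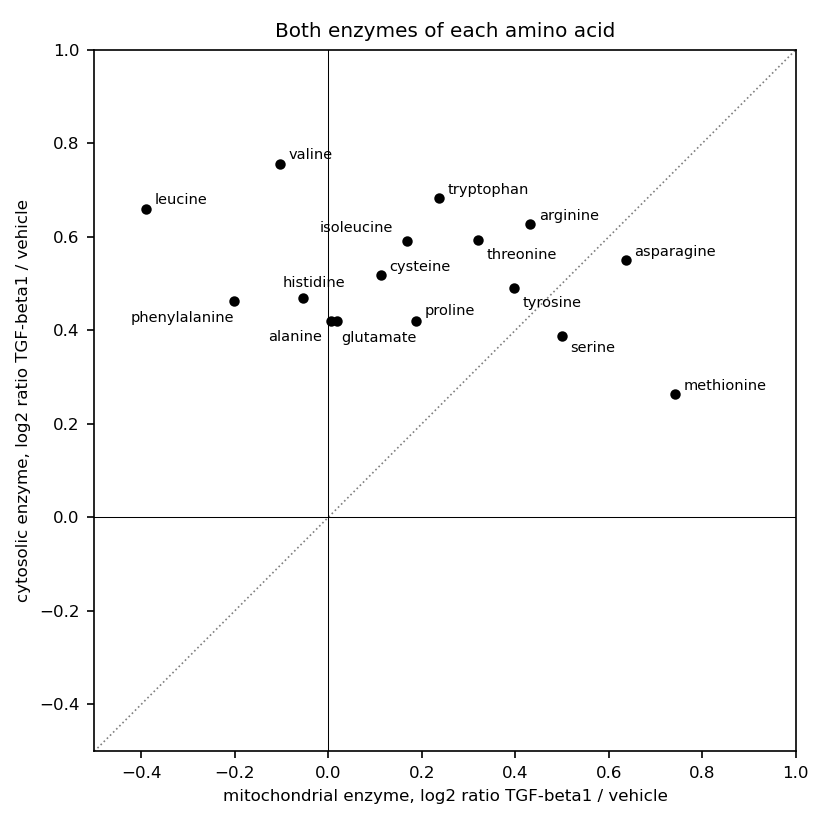
Log2 ratio of TGF-beta1 to vehicle for the cytosolic enzyme (vertical axis) against the mitochondrial enzyme (horizontal axis) of 16 of the 17 amino acids, with the diagonal of equal ratios dotted and Farsa drawn for phenylalanine and Eprs for both glutamate and proline. Of the 16 points 13 lie above the diagonal, with leucine farthest from it, and asparagine, serine and methionine lie below.

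Osm left most synthetases near their vehicle level. Of the 20 cytosolic enzymes 1 was higher and 0 were lower, beside 4.92% of all genes tested that were higher and 4.67% lower. Of the 17 mitochondrial enzymes 2 were higher and 2 lower. The medians were 0.02 and 0.03 on the log2 scale. The intervals of 14 cytosolic and 13 mitochondrial genes held 1, beside those of 10761 of all 13712 genes tested. Of the genes at 30 CPM or more, where all cytosolic enzymes lie, 1.53% were higher and 2.16% lower with Osm, and of those below, 7.43% and 6.52%. The summed CPM of the cytosolic enzymes was 3280 with Osm against 3250 with vehicle, a ratio of 1.01 (0.998 to 1.02).

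The single cytosolic gene was Farsa, 1.24-fold higher with Osm (95% interval 1.11 to 1.38) at 39.4 CPM against 31.8. Farsb, for the other subunit, had an Osm ratio of 1.07. The mitochondrial phenylalanyl enzyme Fars2 went the other way, with 9.10 CPM with Osm against 13.5 with vehicle, 1.48-fold lower (1.21 to 1.83). The difference of 0.88 in log2 ratio between Farsa and Fars2 was the largest of the 17 amino acids with Osm. Sars2 was 1.57-fold higher (1.13 to 2.21) and Mars2 1.31-fold higher (1.06 to 1.61), and the TGF-beta1 library lay above vehicle for both as well. Hars2 was 1.26-fold lower (1.08 to 1.48), with 16.1 CPM against 20.3. Intervals that excluded 1 at less than 1.2-fold were those of Aars (1.06), Vars (1.08) and Qars (1.07) above it, and of Gars (0.944) and Eprs (0.956) below it. The Osm and TGF-beta1 ratios share the vehicle library.

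**Figure D4:**
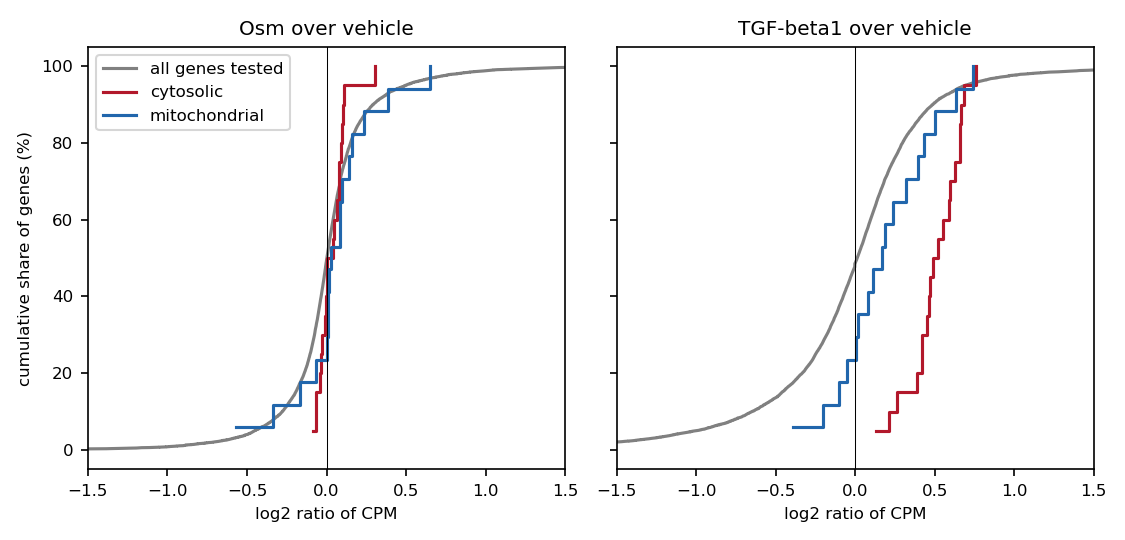
Cumulative share of genes by log2 ratio to vehicle, for all 13712 genes tested and for the cytosolic and mitochondrial synthetases, with Osm and with TGF-beta1 in separate panels. With TGF-beta1 the cytosolic curve lies to the right of that of all genes, with medians of 0.50 and 0.01, while with Osm the medians are 0.02 for the cytosolic enzymes and 0.03 for the mitochondrial ones.

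Set directly against TGF-beta1, Osm gave lower values for 16 of the 20 cytosolic enzymes and higher values for 0, beside 17.4% of all genes tested that were lower and 18.5% higher. Of the 17 mitochondrial enzymes 6 were lower and 1 was higher, and that gene was Lars2, with 155.4 CPM against 116.4 (ratio 1.33). The median log2 ratios were −0.51 and −0.17. This comparison reuses the libraries of the others and adds no new sample.

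Among genes that work with the synthetases, charging cofactors and tRNA processing genes had 4 of 7 members higher with TGF-beta1 and 0 lower, beside 18% and 17.7% of all genes tested, with a median log2 ratio of 0.45. Ppa1, a pyrophosphatase that removes the pyrophosphate released by charging, had 38.6, 42.1 and 69.1 CPM with vehicle, Osm and TGF-beta1. Nsun2, a tRNA methyltransferase, had 101.5, 109.9 and 154.7 CPM. Both were highest with TGF-beta1, by 0.84 and 0.61 on the log2 scale. Cytosolic elongation factors were higher in 3 of 6 and lower in 0, with a median of 0.15, led by Eif5a (log2 ratio 0.51) and Eef1d (0.39). Their summed CPM was 11340 with vehicle and 10958 with TGF-beta1, a ratio of 0.966 (0.960 to 0.972). Eef1a1, the factor that binds charged tRNA directly, had 7067 CPM with vehicle and 6498 with TGF-beta1. Mitochondrial translation factors were higher in 4 of 9 and lower in 0, with a median of 0.26, among them Mtrf1l (0.49) and Tufm (0.35), and 1 of the 9 was higher with Osm, beside 4.92% of all genes, Mrrf with a log2 ratio of 0.28. Of the mitochondrial amidotransferase and formyltransferase genes, which complete the charging of glutamine and initiator tRNAs there, 1 of 4 was higher, Gatc with a log2 ratio of 0.46. In the synthetase-like and editing genes 1 of 5 was higher, Ptrhd1 with a log2 ratio of 0.47. The shares of these last 2 lists lie near that of all genes.

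The Atf4 and amino acid response genes, a list that leaves out the synthetases, had 23 of 30 members higher with TGF-beta1 and 1 lower, Slc38a2, with a median log2 ratio of 0.50, beside 18% and 17.7% of all genes tested. Atf4 itself had 418.8 CPM with vehicle, 410.7 with Osm and 515.6 with TGF-beta1, a log2 ratio of 0.30 for TGF-beta1. Asns, asparagine synthetase, had 201.8, 197.0 and 347.2 CPM, a log2 ratio of 0.78. Cth, which makes cysteine, had 10.4, 11.5 and 37.8 CPM and the largest log2 ratio of the list, 1.86, followed by Pycr1 of proline synthesis with 1.12. For Atf4, Asns and Cth the TGF-beta1 library stood above the other libraries. With Osm, 1 of the 30 genes was higher (Cebpb, 0.36) and 2 were lower (Pycr1, −0.32, among them), beside 4.92% and 4.67% of all genes, with a median of −0.02. The interferon response genes, listed since interferon is known to induce Wars, had 1 of 17 higher and 10 lower with TGF-beta1, beside the same 18% and 17.7%, with a median of −0.39. Psmb8 had a TGF-beta1 log2 ratio of −1.29 and Ifit3 one of −0.97. With Osm, 2 of the 17 were higher (Gbp3, log2 ratio 0.45, and Rsad2) and 1 was lower (Ifit3, −0.31), beside 4.92% and 4.67% of all genes. Rsad2, also the 1 gene higher with TGF-beta1, had only 5, 15 and 23 counts with vehicle, Osm and TGF-beta1.

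Promoter windows from RefSeq (build GRCm38.p6) were found for 27 of the 37 genes, 13 of them cytosolic, and the whole 250 bases before each listed start were searched on both strands. TGATGNAA, the core of the element that C/EBP and Atf4 dimers are known to bind, occurred in 3 of the 13 cytosolic genes (Aars, Gars and Tars) and in 0 of the 14 mitochondrial genes, against 3.45% of all 32851 windows and 2.05% of those of genes tested. TTCNNNGAA, a site of the Stat factors that act below Osm, occurred in Aars and Kars and in the mitochondrial gene Nars2, against 7.02% of all windows. A match describes letters and not binding. In Aars the first motif read TTGCATCA and lay from 112 to 105 bases before the listed start, in a stretch that an annotated transcript of Aars also covers, so its window is not shown. TGF-beta1 ratios were 1.59 for Gars, 1.51 for Tars and 1.34 for Aars. Of the searched cytosolic genes without the Atf4 motif, Farsb and Iars had 1.58 and 1.51, and Qars and Dars 1.16 and 1.10. A relation of motif to ratio was not tested. The windows of Gars and Tars are shown because they hold the Atf4 motif close to the start. Its 8 bases are in capitals as read on the gene's strand. They lie from 30 to 23 bases before the start in Gars and from 15 to 8 in Tars. In build GRCm38.p6 the Gars window is chr6:55037751-55038000 on the plus strand, and the Tars window is chr15:11399659-11399908 on the minus strand.
Gars: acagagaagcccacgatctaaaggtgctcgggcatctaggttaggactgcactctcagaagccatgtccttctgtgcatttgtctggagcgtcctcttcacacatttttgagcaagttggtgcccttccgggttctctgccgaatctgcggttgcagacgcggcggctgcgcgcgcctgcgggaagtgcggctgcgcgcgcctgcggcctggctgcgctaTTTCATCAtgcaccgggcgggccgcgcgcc
Tars: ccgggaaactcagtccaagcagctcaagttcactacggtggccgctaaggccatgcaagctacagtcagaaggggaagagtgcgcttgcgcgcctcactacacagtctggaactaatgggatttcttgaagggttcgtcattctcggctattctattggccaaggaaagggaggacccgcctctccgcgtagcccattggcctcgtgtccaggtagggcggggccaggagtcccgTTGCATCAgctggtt

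Some of these genes share ground with other genes. Overlap with another gene that had counts was found for 9 of the 20 cytosolic and 9 of the 17 mitochondrial genes, and the labels do not state whether the counting used strand. Hars and Hars2 lie on opposite strands and, in the coordinates of the deposited table (build mm39), overlap over 198 bases. Yars is overlapped on the opposite strand by C77080, which had 118.3 CPM with vehicle and 65.5 with TGF-beta1, and Mars1 by Ddit3, with 56.6 and 69.8 CPM. Fars2 is overlapped by Lyrm4, which had 5.54 CPM with vehicle and 5.36 with Osm. Ears2, at 7.55 CPM with vehicle, is overlapped by the more abundant Ubfd1 at 71.6, Cars2 by Naxd at 49.7 and Iars2 by Rab3gap2 at 100.4, so their values are uncertain. Among the 8 mitochondrial genes with no such overlap, 5 were higher and 1 lower with TGF-beta1, with a median log2 ratio of 0.36. Among the 11 cytosolic ones 9 were higher and 0 lower, with a median of 0.46. The shares over all genes tested were 18% higher and 17.7% lower. Aars shared the largest part of its 50-base windows with other genes among the cytosolic enzymes, 13.8%. Among the mitochondrial enzymes it was Iars2, with 22.7%, and Fars2 shared 8.85%. Counts of these genes could have been split by the counting.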

How the data were processed

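The authors deposited raw read counts and FPKM for every Ensembl gene. Per the submitters' processing notes the tools include CASAVA, TopHat2, HISAT and HISAT2, with no version stated, and the build is mm39. The counter and annotation are not given in the sources used, and it is not clear from the labels' protocols which of the strand options was used.

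Counts were scaled to CPM with TMM factors (edgeR 4.0.16, R 4.3.3). A log2 ratio used a prior count of 0.5, and its exact 95% interval was the conditional binomial (Clopper-Pearson) one, which compares 2 libraries and not the conditions. Deposited FPKM served for levels between genes. A marker at 0 has an upper limit of 3 counts, 0.163 to 0.173 CPM. Alternative size factors came from DESeq2 1.42.0. Intervals were computed with scipy 1.17.1 and tables with pandas 2.3.3 under Python 3.11.15. The interval code was tested on simulated data.

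The genes that the rule matched are named, except 1 that is counted in the totals and not reported here by name. From other lists, named genes were up to 2 past the limit with the largest log2 ratio at 5 CPM or more, and Atf4 and Asns. The scaffold proteins, Eef1a1, Slc38a2, Rsad2 and the cell type markers were named beside these after their values were seen. The members and lists were chosen with earlier results of these data known. Alternatives were the count totals, DESeq2 size factors, FPKM, another prior count, other fold limits and leaving out members that overlap another gene.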

Additional observations from a re-analysis of the deposited data

How the results depend on the processing

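No paired analysis was possible because each condition has 1 library, and for the same reason no library could be left out. No count or median changed direction, and neither did any gene past the limit. Of the ratios near 1 that were not past it, those of Sars, Cars and Nars2 with Osm changed sign with DESeq2 size factors and with deposited FPKM, and those of Cars with Osm and Aars2 with TGF-beta1 with count totals. Without members that overlap another gene, the median log2 ratio with TGF-beta1 was 0.46 for cytosolic and 0.36 for mitochondrial enzymes. With all members it was 0.50 and 0.17, so the groups lay closer together without the overlapped genes. The medians without these genes were 0.065 and 0.12 with Osm, and −0.485 and −0.23 for Osm over TGF-beta1. Why they moved was not tested. At a limit of 1.5-fold, TGF-beta1 gave 8 cytosolic and 2 mitochondrial genes higher and 0 mitochondrial genes lower. Of all genes tested, 6.01% were higher and 9.53% lower at that limit. Osm at 1.5-fold gave 0 cytosolic higher, 1 mitochondrial higher and 0 mitochondrial lower, beside 2.1% of all genes higher and 1.66% lower. Osm over TGF-beta1 gave 6 cytosolic lower, 0 mitochondrial higher and 1 mitochondrial lower, beside 9.94% of all genes higher and 6.16% lower. At 2-fold all of these counts were 0, beside shares of all genes tested from 0.649% to 5.08% by comparison and direction. With plain count totals, 17 cytosolic enzymes were higher with TGF-beta1 in place of 18. Leaving out Lars2, an alternative chosen after seeing the data, gave a mitochondrial median of 0.18 with TGF-beta1. Depth limits the mitochondrial genes most.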
